A study of Mus musculus with 12 samples.

Results

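The loading of mRNAs on heavy polysomes while mTOR was inhibited was measured as the level of each mRNA in the polysome fraction against its level in total mRNA of Torin1-treated cells. The libraries were chosen by their labels and by no measured value. They are the 3 polysome and the 3 total mRNA libraries of Torin1-treated cells, 6 of the 12 libraries in the series. The cells were wild-type mouse neural progenitor cells, dissociated from the cerebral cortex at E13.5 and cultured overnight with the growth factors bFGF and EGF. Torin1, an ATP-competitive inhibitor of the kinase mTOR, was given at 250 nM for 2 h, and cycloheximide at 100 ug/ml for 5 min before lysis held ribosomes in place. A share of 10% of each lysate was kept as total mRNA, and the gradient fractions with more than 3 ribosomes per mRNA were collected from the rest as polysome mRNA. The other 6 libraries, 3 total and 3 polysome, come from wild-type cells of the same age and culture that received the solvent DMSO for 2 h and the same cycloheximide step. The libraries of a group are labelled as biological replicates, and the labels do not say whether these came from separate litters, so p-values measure the spread between these samples.

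The kinase complex mTORC1 couples growth signals to translation. When it is inhibited, the 4E-BP proteins bind the cap-binding factor eIF4E, and LARP1 binds the cap and the first bases of TOP mRNAs, which begin with a C followed by an unbroken run of pyrimidines and encode ribosomal proteins and other parts of the translation machinery. A polysome gradient separates mRNAs by the number of ribosomes they carry, so a repressed mRNA moves to lighter fractions. The number of ribosomes also depends on the length of the reading frame, since a short frame has room for few.

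Under Torin1, nuclear mRNAs of mitochondrial proteins and mRNAs of the proteasome were mostly higher in the heavy fraction than in total mRNA. Transcripts of the mitochondrial genome, listed mRNAs of very large proteins and TOP mRNAs were mostly lower or not called. In DMSO most of these lists lay on the same side. There 75 of 76 nuclear oxidative phosphorylation genes and 33 of 38 chaperonin and proteasome genes were higher. In the same cells 35 of 36 listed very large and 10 of 13 mitochondrially encoded genes were lower, while 78 of 81 cytosolic ribosomal protein genes were higher. Of 20240 genes tested, 4133 (20.4%) were higher and 3892 (19.2%) lower in polysome than in total mRNA (limma, Benjamini-Hochberg adjusted p under 0.05), together 39.6% of the genes tested. A difference of at least 2-fold was called for 837 genes (4.14%) in the higher and 1409 genes (6.96%) in the lower direction. The 3 polysome libraries all lay above the 3 total libraries for 23.5% of genes and all below for 23.7%. These shares are the background over all genes tested. Of the 9590 expressed genes, which make up most of the lists, 38.3% were higher and 25.9% lower (median log2 fold 0.11), and the counts of most lists are to be read beside these. Folds are log2 differences of polysome against total mRNA on the log2(value + 1) scale with the standard error of the fit. Levels are in ppm of a library's summed values after scaling. A gene counts as expressed with a mean log2(ppm + 1) of at least 3 over the 12 libraries (9590 genes). Each value is relative to its own library, and a general loss of mRNA from polysomes was not measured, and in bulk samples a loss of loading in all cells cannot be told apart from a complete loss in some of them.

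The deposited values are not reads and their depth is unknown. Their sums ran from 14341674 to 18007005 in the 6 Torin1 libraries, with 18775 to 19949 genes above 0. Pearson's r between libraries of a Torin1 group lay between 0.974 and 0.991 over the expressed genes, a correlation across genes that are not independent replicates. Total Torin1 replicate 2 stood apart in short noncoding RNAs, with Rn7sk, the RNA that holds the elongation factor P-TEFb, at 2069 ppm against 81.1 and 40.8 ppm in the other total Torin1 libraries. All 9 radial glia markers, 5 intermediate progenitor markers and 7 neuron markers were detected in total mRNA. The radial glia markers summed to 3940 to 4040 ppm in total and 4550 to 6940 ppm in polysome mRNA, and the neuron markers to 2820 to 2900 and 2700 to 2810 ppm. Markers of blood and microglia summed to 1090 to 1270 ppm in total and 1510 to 2120 ppm in polysome mRNA and those of endothelial, mural and meningeal cells to 46.4 to 55.8 and 45.5 to 48.7 ppm. The higher sums in polysome mRNA did not hold for most single markers. Of the 9 radial glia markers 1 was called higher and 4 lower, and of the 6 blood and microglia markers 1 higher and 0 lower. Of the 7 neuron markers 1 was higher and 5 lower. The part of cells other than progenitors in the results was not tested.

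**Figure D1:**
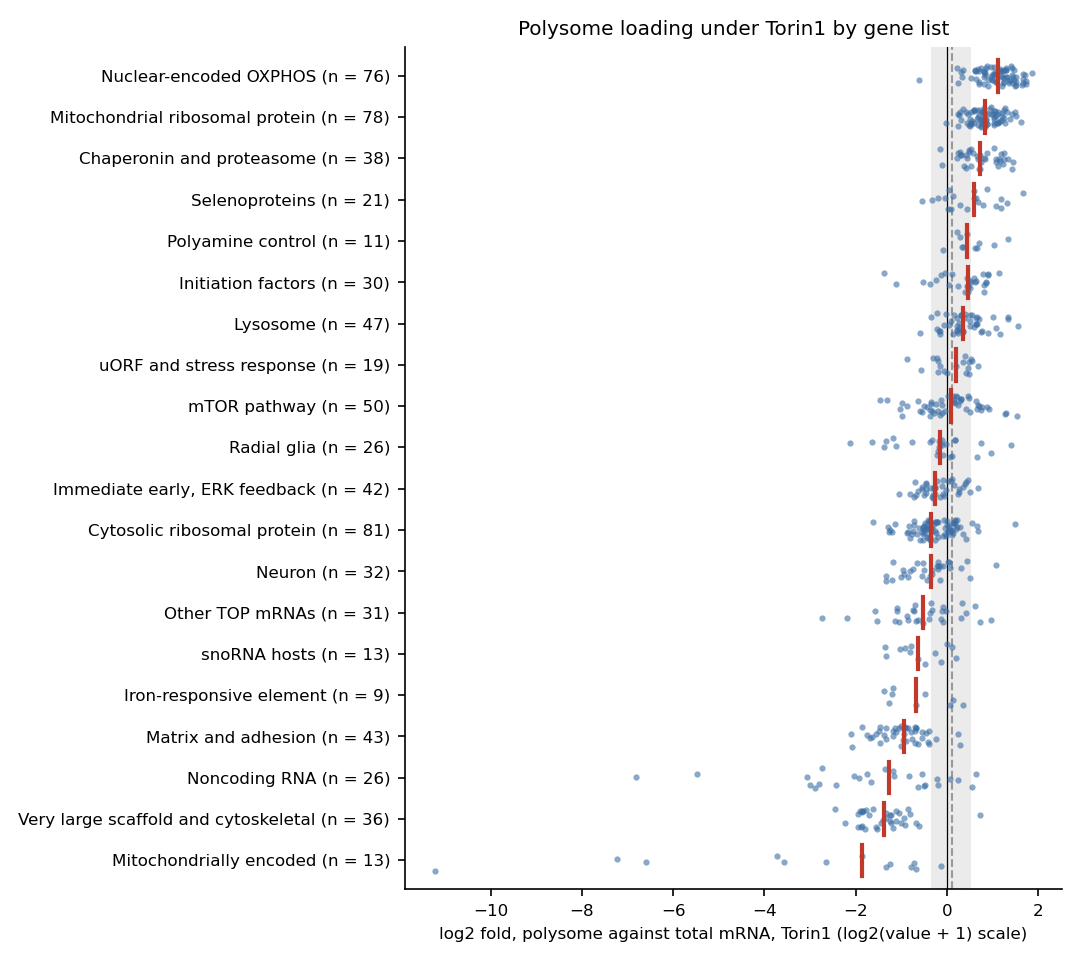
Log2 fold of polysome against total mRNA under Torin1 for 20 gene lists. Each point is 1 gene, red bars are list medians, the grey band spans the quartiles of all 9590 expressed genes and the dashed line their median (0.11). Oxidative phosphorylation and mitochondrial ribosomal protein genes lie almost wholly to the right of 0, and very large, matrix and mitochondrially encoded genes to the left.

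Several nuclear noncoding RNAs were lower in the heavy fraction, while expressed long noncoding RNAs as an annotated class had shares near those of all expressed genes. Of 119 expressed genes that RefSeq annotates as long noncoding RNA, 42 (35.3%) were higher and 31 (26.1%) lower, with a median log2 fold of 0.17. Of all 1412 such genes tested, 6.8% were higher and 9.56% lower (median -0.08). In a chosen list of 26 noncoding RNAs, 14 were lower and 1 was higher, with a median log2 fold of -1.27, against -0.02 over all genes tested. Rian, an imprinted long noncoding RNA on chromosome 12, read 187, 174 and 182 ppm in the total and 26.4, 24.7 and 26.8 ppm in the polysome libraries. Its 3 polysome libraries lay close together and far below the 3 total libraries, a log2 fold of -2.80 ± 0.08 (limma, adjusted p = 2.59e-09). Malat1, a nuclear speckle RNA on chromosome 19 from 5795690 to 5802672, read 32.7, 35.7 and 35.4 ppm in the total and 2.98, 7.52 and 3.46 ppm in the polysome libraries. Meg3, an imprinted long noncoding RNA, read 49.9, 69.3 and 62.1 ppm in the total and 19.9, 15.8 and 18.1 ppm in the polysome libraries, again with every polysome library below every total library. The 1 member that was higher, Pantr1, a long noncoding RNA next to the transcription factor gene Pou3f3, had a log2 fold of 0.64 ± 0.21 (limma, adjusted p = 0.0279), a call lost in 3 of the 6 limma fits that left out 1 library (adjusted p from 0.0608 to 0.119 there). Gas5 and 6 more of 13 hosts of small nucleolar RNAs were lower and 0 were higher (median -0.64). In DMSO 8 of these hosts were lower and 1 higher (median -0.6). Of the 26 noncoding RNAs 13 were lower and 1 higher in DMSO (median -1.15). In both lists 0 genes were called different between treatments, with 1 host lower under Torin1 without polysome Torin1 replicate 3. Gas5, whose transcript begins with a TOP sequence in textbook accounts but encodes no long protein, read 305, 325 and 301 ppm in the total and 103, 112 and 151 ppm in the polysome libraries, with no overlap (log2 fold -1.36 ± 0.14, limma, adjusted p = 9.95e-06). The small RNAs Rn7sk and Rn7s1, the RNA of the signal recognition particle, were the members with the lowest folds (-5.49 and -6.82), values that rest on total Torin1 replicate 2: Rn7s1 read 145, 9342 and 71.4 ppm in the total and 7.43, 2.65 and 3.25 ppm in the polysome libraries. Without that library the Rn7sk difference was no longer called (limma, adjusted p = 0.0824), nor without polysome Torin1 replicate 2 (adjusted p = 0.0738).

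The 13 protein-coding transcripts of the mitochondrial genome, which are translated inside the organelle by mitochondrial ribosomes, were lower in 11 cases and higher in 0 (median -1.85). Their summed share of the library values was 8.49 ± 0.34% (SD, n = 3) in total and 2.05 ± 0.30% in polysome mRNA. mt-Nd1, a subunit of complex I, read 6666, 6064 and 6261 ppm in the total and 473, 540.0 and 599 ppm in the polysome libraries. All 3 polysome libraries were far below the lowest total library, a log2 fold of -3.56 ± 0.20 (limma, adjusted p = 5.97e-07). mt-Co1, the catalytic subunit of cytochrome oxidase, read 10165, 9412 and 9719.6 ppm in the total and 4659, 6295 and 6925 ppm in the polysome libraries, a smaller difference of -0.73 ± 0.22 and a call lost in limma without total Torin1 replicate 1 (adjusted p = 0.0539) or polysome Torin1 replicate 1 (adjusted p = 0.0789). mt-Cytb, the cytochrome b of complex III, read 6428, 6069 and 6167 ppm in the total and 4977, 5536 and 6631 ppm in the polysome libraries, and its groups overlapped.

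Ribosomal protein mRNAs, the largest class of TOP mRNAs, were split under Torin1. Of 81 cytosolic ribosomal protein genes, 41 (50.6%) were lower in polysome than in total mRNA, 5 were higher and 35 did not pass the test, with a median log2 fold of -0.34 and a range from -1.61 to 1.5. Their summed share of the library values was 13.3 ± 0.71% (SD, n = 3) in total and 10.5 ± 0.90% in polysome mRNA. In DMSO the same list had a median of 0.97, and its share was 12.9 ± 0.06% in total and 19.2 ± 1.41% in polysome mRNA. Many of these genes have near-identical pseudogene copies, and the sources used here do not give how the authors' counting divided reads between a gene and its copies.

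The most depleted ribosomal protein mRNA was Rplp0, the scaffold of the ribosomal stalk, on chromosome 5 from 115559467 to 115563729. Rplp0 read 1864, 1716 and 1790.1 ppm in the total and 678, 552 and 535 ppm in the polysome libraries. The polysome libraries all lay far below the total libraries, and the log2 fold was -1.61 ± 0.09 (limma, adjusted p = 6.36e-07). Rpsa, a small subunit protein that also serves as a laminin receptor precursor, read 1443, 1217 and 1337 ppm in the total and 580.3, 486 and 570.2 ppm in the polysome libraries, a log2 fold of -1.29 ± 0.09. Rpl12, Rps12 and Rps2 followed with -1.26, -1.25 and -1.20, and Rps19, a small subunit protein, read 811, 767 and 795 ppm in the total and 357, 294 and 438 ppm in the polysome libraries. These 6 were the only members at least 2-fold lower, and the groups did not overlap in any of them. Rps6, the ribosomal protein phosphorylated by S6 kinase downstream of mTORC1, stood near the middle of the list, at 1505, 1433 and 1471 ppm in the total and 1088, 1001 and 1319.9 ppm in the polysome libraries. Its polysome libraries all lay below its total libraries, by a log2 fold of -0.38 ± 0.12 (limma, adjusted p = 0.0238). That call was lost in 4 of the 6 limma fits that left out 1 library (adjusted p from 0.0626 to 0.0896 there).

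At the other end of the list, Rps27l, a paralog of Rps27 that is a target of p53, read 261, 257 and 268 ppm in the total and 658, 622 and 995 ppm in the polysome libraries, a log2 fold of 1.5 ± 0.17 (limma, adjusted p = 2.27e-05). All 3 of its polysome libraries were more than 2-fold above every total library. Rpl38, a large subunit protein studied for its part in the translation of Hox mRNAs, read 2318, 2150.2 and 2269.6 ppm in the total and 3537, 3018 and 4406 ppm in the polysome libraries (log2 fold 0.69 ± 0.15). Rpl27, Rpl19 and Rpl11 were the other members called higher, with 0.65, 0.55 and 0.42, the call of Rpl11 being lost in 5 of the 6 limma fits that left out 1 library (adjusted p from 0.0503 to 0.0906 there). Of 80 pairs of neighbours in this order 3 lay further apart than their combined standard error, namely Rplp0 and Rpsa, Rps19 and Rpl17, and Rpl38 and Rps27l.

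**Figure D2:**
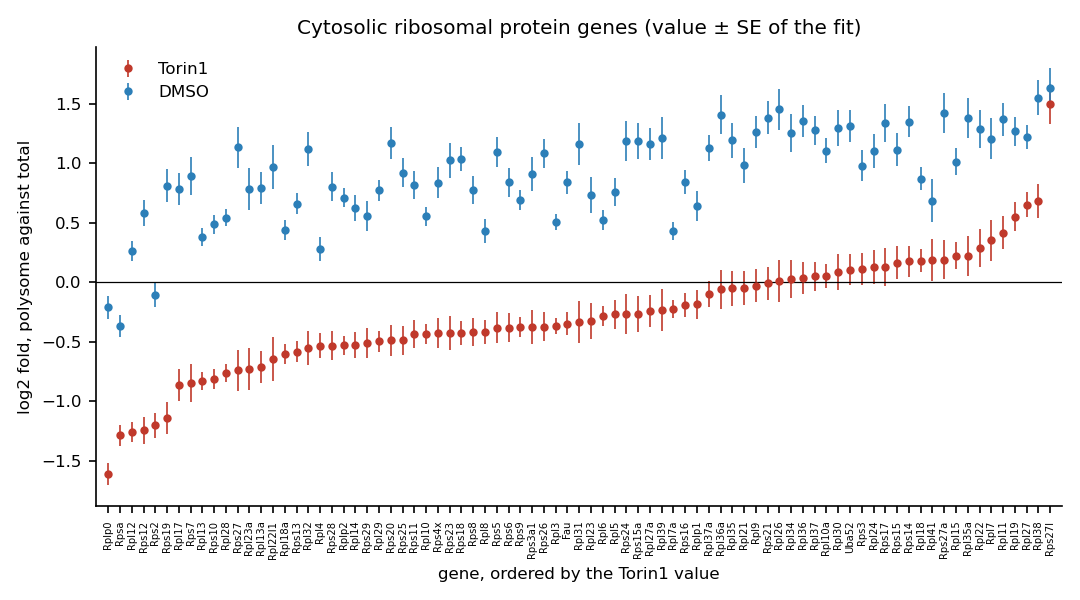
Log2 fold of polysome against total mRNA for the 81 cytosolic ribosomal protein genes, ordered by the Torin1 value, with bars for the standard error of the fit (n = 3 libraries a group). Torin1 values (red) run from -1.61 for Rplp0 to 1.5 for Rps27l and lie below the DMSO value (blue) of the same gene throughout, most closely for Rps27l.

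Outside the ribosomal proteins, 18 of 31 further TOP mRNAs were lower and 5 higher (median -0.51). The mRNA of the cytoplasmic poly(A) binding protein, Pabpc1, lies on chromosome 15 from 36595658 to 36609581. It had the lowest log2 fold of the named coding mRNAs of nuclear genes with non-overlapping groups. Pabpc1 read 543, 503 and 518 ppm in the total and 69.9, 92.7 and 73.8 ppm in the polysome libraries. Each polysome library was far below the lowest total level, a log2 fold of -2.73 ± 0.09 (limma, adjusted p = 6.77e-09). Ybx1, a cold shock domain protein that binds mRNA and shapes its translation, read 2088, 1345 and 1833 ppm in the total and 372, 390.4 and 375 ppm in the polysome libraries (log2 fold -2.19 ± 0.16). Tpt1, the translationally controlled tumour protein and a classical TOP mRNA, read 1975, 1869.6 and 1899 ppm in the total and 614, 606 and 779.8 ppm in the polysome libraries (log2 fold -1.53 ± 0.10). Both genes had every polysome library below every total library.

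Elongation factors were depleted to different degrees. Eef1a1, which brings aminoacyl-tRNA to the ribosome, read 7786, 7309 and 7628 ppm in the total and 3226, 3394 and 4099 ppm in the polysome libraries, a log2 fold of -1.09 ± 0.11 (limma, adjusted p = 1.08e-05). Eef2, the translocase, had -1.05 ± 0.09, and Eef1g and Eef1b2, subunits of the exchange factor of Eef1a1, had -0.85 and -0.64. The exchange factor subunit Eef1d went the other way, at 184, 174 and 176 ppm in the total and 302, 275 and 302 ppm in the polysome libraries, and all its polysome libraries were above its total libraries (log2 fold 0.72 ± 0.07). Btf3 and Naca, the subunits of the nascent polypeptide-associated complex, were also higher, with 0.96 and 0.62. Of the eIF3 subunits in this list, Eif3f and Eif3a were lower (-1.58 and -1.13) and Eif3k higher (0.31, a call lost in limma without total Torin1 replicate 2 (adjusted p = 0.0577)). Larp1, the repressor of TOP mRNAs, had a log2 fold of -0.88 ± 0.10 for its own mRNA, and the poly(A) binding protein gene Pabpc4 had -1.09 ± 0.08.

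The start sequences of some of these mRNAs are shown to set TOP-like starts beside others. They are RefSeq sequences on GRCm38.p6, from 10 bases before to 19 bases after the base annotated as the transcript start, 5′ to 3′ on the gene strand. Capitals mark the longest unbroken run of C and T that begins with a C and holds at least 5 bases in this window. The positions are Rps6 at chr4:86857348-86857377 (minus strand), Rpl38 at chr11:114668570-114668599 (plus strand), Rack1 at chr11:48800350-48800379 (plus strand), Eef1a1 at chr9:78481705-78481734 (minus strand), Eif3f at chr7:108934405-108934434 (plus strand), Cox7a2l at chr17:83514314-83514343 (minus strand), Atp5g2 at chr15:102671028-102671057 (minus strand), Tpt1 at chr14:75845246-75845275 (plus strand), Uqcr11 at chr10:80406802-80406831 (minus strand), Atp5j2 at chr5:145191522-145191551 (minus strand) and Map1b at chr13:99516583-99516612 (minus strand). The first 7 are mRNAs with a run, 6 of them lower on polysomes under Torin1 than in DMSO. Tpt1 is lower than in DMSO and has no run at its annotated start, and the last 3 are mRNAs with the same loading call under both treatments. The sequences printed are a choice, and runs did not go with the difference from DMSO in every gene. Ybx1, Eef1b2, Rpsa and Ccni, also lower than in DMSO, had no run in this window. Mrpl20, not called different from DMSO, had a run of 10 bases that began 16 bases after its annotated start.
Rps6: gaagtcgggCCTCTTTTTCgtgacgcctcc
Rpl38: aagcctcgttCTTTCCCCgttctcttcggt
Rack1: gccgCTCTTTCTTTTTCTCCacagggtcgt
Eef1a1: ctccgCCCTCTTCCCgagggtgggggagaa
Eif3f: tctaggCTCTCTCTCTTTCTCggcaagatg
Cox7a2l: ggggaagccgggtCCTTTTCTagggcggtc
Atp5g2: gcgcccccgCCCCTCTCTgtcttctctgcc
Tpt1: cgctgacgacagttccgggggagccgcgga
Uqcr11: cttcacgcatgcgctatacgtctgcacatg
Atp5j2: gcgcggctggagttctgcggacaccaggac
Map1b: ggaggaggggggacgcagggggcggagcgg

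Expressed genes with and without a pyrimidine run at the annotated start had nearly the same median loading under Torin1. Of 13320 tested genes with an entry in the promoter table, 37.2% held a run that began within 10 bases of the annotated start, and of 7545 expressed genes 37.0%. The share was 61.7% of 60 ribosomal protein genes with an entry (37 genes), 52.2% of 23 other TOP mRNAs, 37.5% of 64 nuclear oxidative phosphorylation genes and 44.9% of 69 mitochondrial ribosomal protein genes. The motif searched is a C followed by at least 4 bases that are each C or T, on the gene strand, with no count of a match on the other strand. Expressed genes with such a run had a median log2 fold of 0.11 under Torin1 and those without 0.13. Of the 7545 expressed genes 2795 held a run, and 41 of these were called lower than in DMSO. In the larger group without a run 26 were called lower. Outside the ribosomal protein genes these counts were 9 and 9, where 2758 of 7485 expressed genes (36.8%) held a run. Equal counts are thus a larger share of the genes with a run. Among the ribosomal protein genes the median difference from DMSO was -1.30 with and -1.06 without a run. Within the ribosomal proteins the medians were -0.34 with and -0.27 without a run, an order that turned for runs within 2 bases of the start (-0.27 with and -0.33 without). A run that began at the annotated start itself was held by 3.11% of expressed genes and by 23.3% of the ribosomal protein genes. A match describes letters in a window and is not a measured regulatory site.

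In a chosen list of very large proteins, the mRNAs were depleted almost without exception. Protein lengths were not analysed, so the list does not stand for all large proteins. Of 36 genes for very large scaffold, motor, chromatin and cytoskeletal proteins, 35 were lower and 1 higher, with a median log2 fold of -1.37, and 29 were at least 2-fold lower. Map1b, a microtubule-associated protein of growing axons on chromosome 13 from 99421464 to 99516602, read 299, 321 and 315 ppm in the total and 50, 66.1 and 56.4 ppm in the polysome libraries. The polysome libraries lay far below the total libraries, a log2 fold of -2.45 ± 0.10 (limma, adjusted p = 5.22e-08). Kmt2d, a histone methyltransferase, read 10.2, 13 and 11.5 ppm in the total and 2.67, 2.05 and 2.58 ppm in the polysome libraries (log2 fold -2.22 ± 0.16). Outside the list, the RNA-binding protein gene Prrc2c, the chromatin remodeller gene Atrx and the centriolar satellite gene Pcm1 had log2 folds of -2.47, -2.26 and -1.98. Mki67, the proliferation marker that coats mitotic chromosomes, had -2.13 ± 0.14. The 1 member that was higher, the integrin-binding cytoskeletal linker Tln1, read 28.4, 31.3 and 27.2 ppm in the total and 51.5, 40.7 and 52.2 ppm in the polysome libraries, with all polysome above all total libraries (log2 fold 0.72 ± 0.13, limma, adjusted p = 0.000609), while its paralog Tln2 was lower (-0.68).

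Secreted matrix and adhesion mRNAs, which are translated at the endoplasmic reticulum and include many long ones, moved the same way, with 38 of 43 lower and 1 higher (median -0.94), the latter count being 2 without polysome Torin1 replicate 3. The protocadherin genes Fat4 and Fat3 had -2.11 ± 0.12 and -2.07 ± 0.14. Tnc, the matrix glycoprotein tenascin C of radial glia, read 40.8, 50.3 and 45.3 ppm in the total and 15.3, 16.4 and 12.3 ppm in the polysome libraries. Its groups were far apart, with a log2 fold of -1.63 ± 0.11 (adjusted p = 1.3e-06, limma). The receptor genes Notch1 and Notch2, which keep progenitors from differentiating, had -1.18 and -1.33. The integrin gene Itgb1 was the 1 member called higher (0.28 ± 0.08), a call lost in limma without total Torin1 replicate 2 (adjusted p = 0.0507) or total Torin1 replicate 3 (adjusted p = 0.0592).

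The span of a gene in the genome went with its loading. Among 9142 expressed genes with a protein in the RefSeq table, the median log2 fold was 0.72 for the 214 genes that span under 2000 bp, 0.46 for the 1184 genes from 5000 to 10000 bp, 0.06 for the 2552 genes from 20000 to 50000 bp and -0.52 for the 457 genes of 200000 bp or more. In the first of these bins 75.7% of genes were higher and 6.54% lower, and in the last 10.3% were higher and 64.3% lower. Across genes Spearman's rho was -0.52 and Pearson's r with the log10 span -0.50, a description with no p over genes that share the same 6 libraries. The medians of the difference between Torin1 and DMSO ranged over these bins only from -0.04 to 0.05. Lengths of reading frames were not analysed here.

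**Figure D3:**
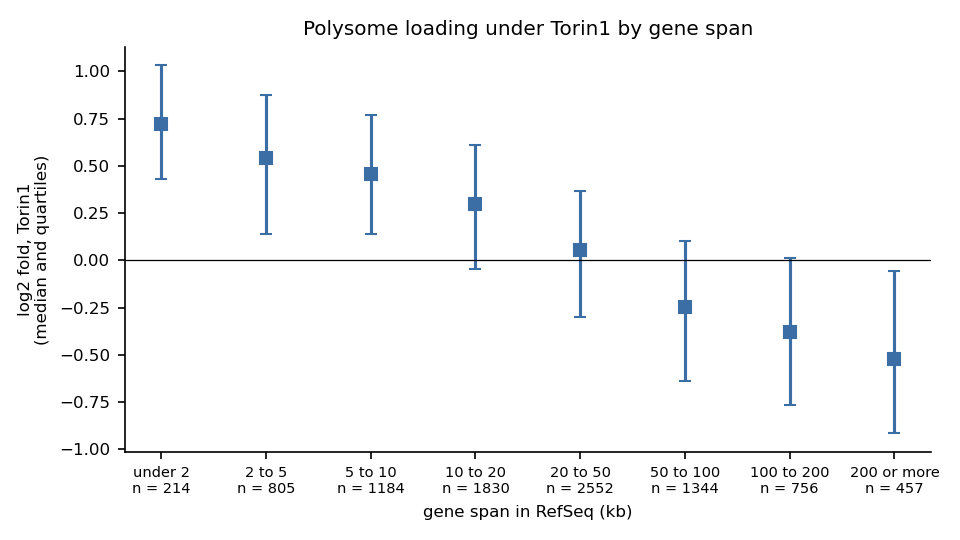
Log2 fold of polysome against total mRNA under Torin1 by the genomic span of the gene, for 9142 expressed protein-coding genes. Squares are medians and bars the quartiles, and the median falls from 0.72 in the shortest to -0.52 in the longest bin.

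Ferritin mRNAs, which carry an iron-responsive element in their leader that represses translation when iron is low, were depleted under Torin1. Fth1, the ferritin heavy chain on chromosome 19 from 9980600 to 9985111, read 1210.4, 1074 and 1184 ppm in the total and 458, 424 and 449 ppm in the polysome libraries. Ftl1, the light chain, read 3445, 3139 and 3395 ppm in the total and 1485, 1313 and 1324 ppm in the polysome libraries. Both genes had every polysome library far below every total library, with log2 folds of -1.38 ± 0.07 and -1.28 ± 0.09 (limma, adjusted p = 4.52e-07 and 1.36e-06). Of 9 mRNAs with such an element 5 were lower and 1 higher (median -0.69). The hypoxia factor gene Epas1 was also lower (-1.21). In DMSO the log2 folds of Fth1 and Ftl1 were -1.19 and -1.37.

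The list with the highest median loading under Torin1 held mRNAs of mitochondrial proteins made in the cytosol. Of 76 nuclear genes of oxidative phosphorylation, 75 were higher and 1 lower, with a median log2 fold of 1.12 under Torin1 and 1.26 in DMSO, and 46 were at least 2-fold higher. Their summed share of the library values was 2.41 ± 0.12% (SD, n = 3) in total and 4.89 ± 0.34% in polysome mRNA. Atp5j2, a subunit of the membrane part of ATP synthase on chromosome 5 from 145183704 to 145191541, read 219.9, 214 and 225 ppm in the total and 790.5, 638 and 1025 ppm in the polysome libraries. Every polysome library was well above every total library, a log2 fold of 1.87 ± 0.17 (limma, adjusted p = 4.61e-06). Uqcr11, a small subunit of complex III, read 414, 416 and 431 ppm in the total and 1421, 1170.5 and 1635 ppm in the polysome libraries (log2 fold 1.73 ± 0.14), and Ndufa4 and Ndufb2, subunits of respiratory complexes, had 1.74 and 1.72. Smaller folds were those of Ndufs1, a subunit of complex I, at 0.53 and Sdha, the flavoprotein of complex II, at 0.35.

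The 1 member of that list that was depleted was Cox7a2l, a factor of respiratory supercomplex assembly on chromosome 17 from 83501917 to 83514333. Cox7a2l read 137, 126 and 125 ppm in the total and 89.1, 72.4 and 95.3 ppm in the polysome libraries, with all polysome below all total libraries (log2 fold -0.60 ± 0.10, limma, adjusted p = 0.000355). In DMSO its log2 fold was 0.64 ± 0.10, and the difference between treatments was -1.24 ± 0.14 (limma interaction, adjusted p = 0.000997). Atp5g2, a gene for the membrane ring subunit of ATP synthase, was called higher under Torin1 by only 0.23 ± 0.07 against 0.78 ± 0.07 in DMSO, a difference of -0.56 ± 0.09 (limma interaction, adjusted p = 0.0147). That difference was lost in 7 of the 12 limma fits that left out 1 library (adjusted p from 0.0539 to 0.0759 there), and its loading call under Torin1 was lost in limma without total Torin1 replicate 1 (adjusted p = 0.0541) or total Torin1 replicate 2 (adjusted p = 0.0591). Its paralogs Atp5g1 and Atp5g3 encode the same mature protein and had 0.83 and 1.18 under Torin1. The starts of Cox7a2l and Atp5g2 printed above hold runs of 8 and 9 pyrimidines.

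Mitochondrial ribosomal protein genes were nearly all higher. Of 78, 74 were higher and 0 lower, with a median log2 fold of 0.83 (0.93 in DMSO). Mrpl20 on chromosome 4 from 155802878 to 155808831 read 132, 114 and 119.9 ppm in the total and 385, 334 and 421 ppm in the polysome libraries, with every polysome above every total library (log2 fold 1.63 ± 0.11, limma, adjusted p = 1.13e-06). Mrpl12, which also binds the mitochondrial RNA polymerase, had 1.51 ± 0.13. Of 38 chaperonin and proteasome subunits, 35 were higher and 0 lower (median 0.72), with 1 lower without polysome Torin1 replicate 3. The core particle genes Psmb7 and Psma2 had 1.45 ± 0.13 and 1.43 ± 0.16, and the chaperonin genes Cct2 and Tcp1, which did not pass the test, had -0.10 and -0.15.

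**Figure D4:**
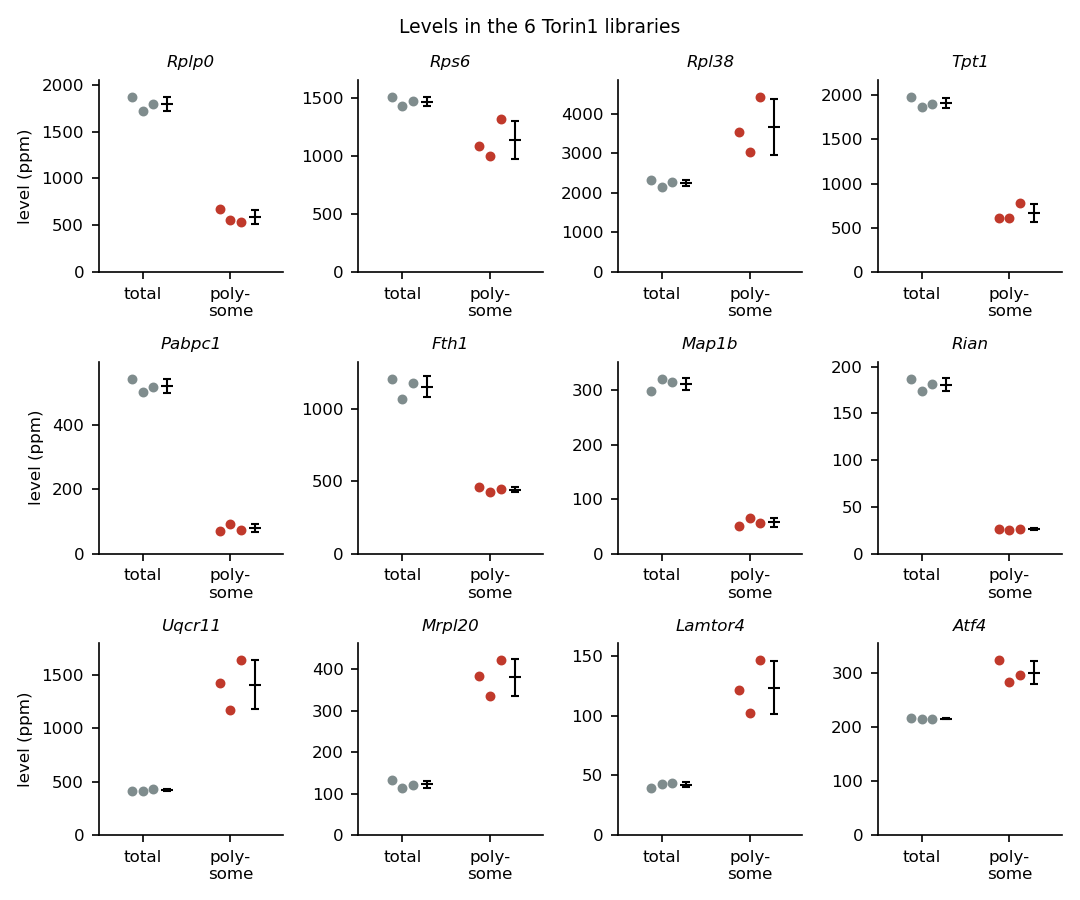
Levels in ppm of 12 mRNAs in the 3 total (grey) and 3 polysome (red) Torin1 libraries, each point 1 library, with the mean and SD beside the points and every axis starting at 0. Rplp0, Rps6, Tpt1, Pabpc1, Fth1, Map1b and Rian are lower and Rpl38, Uqcr11, Mrpl20, Lamtor4 and Atf4 higher in all polysome libraries.

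Among single genes, the 12 largest coding rises under the naming rule given below included Uxt, a prefoldin-like chaperone on chromosome X from 20951665 to 20962017. Uxt read 26.7, 20.9 and 19.3 ppm in the total and 78.9, 77.8 and 108 ppm in the polysome libraries. Its polysome libraries were far above each total library, a log2 fold of 1.98 ± 0.18 (limma, adjusted p = 5.85e-06). Prdx1, a peroxiredoxin that removes hydrogen peroxide, read 262, 241 and 249 ppm in the total and 781, 711 and 1202 ppm in the polysome libraries (log2 fold 1.80 ± 0.18). Naa38, an auxiliary subunit of an N-terminal acetyltransferase, Sdhaf4, an assembly factor of complex II, and Lgals1, the secreted lectin galectin 1, had 1.80, 1.79 and 1.77. At the low end, Wsb1, a ubiquitin ligase adaptor, read 139, 168 and 169.6 ppm in the total and 33.9, 38.9 and 38.2 ppm in the polysome libraries, and the potassium channel gene Kcna3 had -1.99 ± 0.14. Npas3, a neural transcription factor, had a log2 fold of -2.15 ± 0.53, but its total libraries ran from 14.5 to 67.6 ppm, the highest of them in total Torin1 replicate 2.

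Most initiation factor mRNAs were also higher. Of 30 outside the TOP list, 20 were higher and 4 lower (median 0.47). Eif5a, which helps ribosomes through difficult peptide bonds, read 784, 722 and 758 ppm in the total and 1845, 1512 and 1649 ppm in the polysome libraries, with no overlap (log2 fold 1.14 ± 0.08, limma, adjusted p = 1.46e-06). Eif4a1, the helicase of the cap-binding complex, and Eif4e, the cap-binding protein, had 0.81 ± 0.09 and 0.64 ± 0.14. The scaffolds Eif4g1 and Eif4g3 were lower, with -0.52 ± 0.08 and -1.12 ± 0.10, and so was the subunit-joining factor Eif5b (-1.38 ± 0.18). Of 20 tRNA synthetase genes 9 were higher and 3 lower (median 0.18, 0.07 with scaling to the column total; 5 lower without polysome Torin1 replicate 1), the lowest being the large bifunctional Eprs, with -0.87 ± 0.10.

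Genes of the mTOR pathway itself lay in both directions, with shares near those of expressed genes. Of 50, 17 (34.0%) were higher and 16 (32.0%) lower, against 38.3% and 25.9% of expressed genes. Their median of 0.08 became -0.02 with scaling to the column total. The Ragulator genes, whose products hold the Rag GTPases on the lysosome, included the highest member. Lamtor4 on chromosome 5 from 138255482 to 138259395 read 39.6, 42.9 and 43.9 ppm in the total and 122, 102 and 146 ppm in the polysome libraries, with separate groups (log2 fold 1.53 ± 0.14, limma, adjusted p = 4.98e-06), and Lamtor5, Lamtor2, Lamtor3 and Lamtor1 had 1.30, 1.28, 0.93 and 0.70. Rheb, the GTPase that activates mTORC1, and Akt1, the kinase upstream of it, had 0.69 and 0.65. The large kinase and scaffold genes were lower, with Mtor at -0.32 ± 0.11, a call lost in 5 of the 6 limma fits that left out 1 library (adjusted p from 0.0571 to 0.132 there), the mTORC1 subunit Rptor at -0.59 ± 0.13 and the mTORC2 subunit Rictor at -0.99 ± 0.15. Deptor, an inhibitor bound to both complexes, was the lowest, at 19.7, 20.7 and 17.2 ppm in the total and 6.4, 6.91 and 7.44 ppm in the polysome libraries (log2 fold -1.46 ± 0.15, limma, adjusted p = 1.02e-05). The translational repressor genes Eif4ebp1 and Eif4ebp2 lay on opposite sides, with 0.76 ± 0.15 and -0.38 ± 0.09.

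Lysosomal genes were mostly higher, 29 of 47 against 2 lower (median 0.35), with 1 lower without polysome Torin1 replicate 1 or 3 or without total Torin1 replicate 2 or 3. The proton pump subunits Atp6v0e and Atp6v1g1 had 1.57 ± 0.12 and 1.35 ± 0.12, and the membrane protein Lamp1 read 152, 131 and 151 ppm in the total and 191, 181 and 181 ppm in the polysome libraries (log2 fold 0.35 ± 0.07). The cholesterol exporter Npc1 was lower (-0.59 ± 0.16), and the larger pump subunits Atp6v1a and Atp6v0a1, which did not pass the test, had -0.23 and -0.21. With scaling to the column total 20 of the lysosomal genes were called higher.

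Upstream open reading frames limit the translation of stress-response mRNAs such as Atf4, the transcription factor of amino acid stress. Atf4, on chromosome 15 from 80255184 to 80257545, read 217, 214 and 216 ppm in the total and 324, 283 and 297 ppm in the polysome libraries. All polysome libraries exceeded all total libraries, by a log2 fold of 0.48 ± 0.06 (limma, adjusted p = 5.16e-05), and in DMSO the fold was 0.34 ± 0.06. Its relative Atf5 and the interferon-related regulator Ifrd1 had 0.55 ± 0.08 and 0.68 ± 0.11. Ddit3, a transcription factor of prolonged stress, read 47.8, 48.6 and 45.7 ppm in the total and 53.1, 48.5 and 62.5 ppm in the polysome libraries, and its groups overlapped. Of 19 such genes 6 (31.6%) were higher and 4 (21.1%) lower (median 0.20), near the shares of expressed genes (38.3% and 25.9%). Upper-quartile scaling gave 3 higher, and leaving out polysome Torin1 replicate 3 gave a median of 0.10. The polyamine genes, several of them under translational feedback, were higher in 8 of 11 cases and lower in 0 (median 0.45). Oaz1, the antizyme whose frame shifts when polyamines are high, and Sat1, the polyamine acetyltransferase, had 1.03 ± 0.11 and 1.33 ± 0.15, and Odc1, the enzyme antizyme destroys, 0.35 ± 0.06.

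Selenoprotein mRNAs, which decode a stop codon as selenocysteine, were higher in 10 of 21 and lower in 2 (median 0.59), with 1 lower when any total Torin1 library was left out and a median of 0.38 without replicate 3 of that group. Gpx4, which repairs lipid peroxides, read 208 ± 9.84 ppm (SD, n = 3) in total and 518 ± 65 ppm in polysome mRNA (log2 fold 1.31 ± 0.10, limma, adjusted p = 1.72e-06), with no overlap between the groups. The endoplasmic reticulum selenoprotein gene Selenom had 1.66 ± 0.24, while Selenow, named from its list, had -0.32 ± 0.11 and the deiodinase gene Dio2 -0.56 ± 0.13. The call of Selenow was lost in 4 of the 6 limma fits that left out 1 library (adjusted p from 0.0666 to 0.148 there). Of 35 replication-dependent histone genes, most of them near or below the expression limit, 5 were higher and 0 lower. Their median of 0.32 became -0.26, 1.02 and -0.16 without total Torin1 replicate 1, 2 and 3. Without total Torin1 replicate 2 the count was 15 higher and 0 lower, and without replicate 3 of that group 2 were lower.

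Immediate early and ERK feedback genes were lower in 16 of 42 cases and higher in 5 (median -0.26), with 3 higher without polysome Torin1 replicate 1, a median of -0.13 without replicate 3 of that group, and 1 higher with scaling to the column total. Zfp36, which destabilises AU-rich mRNAs, had -1.06 ± 0.29 at levels of 1.01 to 2.9 ppm, and Jund, an AP-1 subunit encoded without introns, read 118, 87.1 and 106 ppm in the total and 195, 157 and 144 ppm in the polysome libraries (log2 fold 0.67 ± 0.13). Fos, whose 3 polysome libraries lay below its total libraries, did not pass the test (-0.26 ± 0.10, limma, adjusted p = 0.0546). Irs2, the insulin receptor substrate, had -1.12 ± 0.14. Splicing regulators, whose transcripts include nuclear-retained and poison-exon forms, were lower in 10 of 27 and higher in 5, from the cyclin gene Ccnl1 (-1.34 ± 0.16) and the speckle scaffold Son (-1.26 ± 0.17) to Srsf3 and Srsf7 (0.82 and 0.84).

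Cell identity genes did not follow a common direction. Of 26 radial glia genes 10 were lower and 4 higher (median -0.15, -0.09 without polysome Torin1 replicate 1 and -0.26 with scaling to the column total). Sox2, a transcription factor of progenitors, read 128, 127 and 126 ppm in the total and 110.3, 115 and 102 ppm in the polysome libraries, a small difference without overlap (log2 fold -0.22 ± 0.06, limma, adjusted p = 0.0103). The intermediate filament gene Nes had -1.11 ± 0.22, and Fabp7 and Dbi, which encode small lipid-binding proteins, had 0.96 ± 0.21 and 1.41 ± 0.12. Of 15 intermediate progenitor genes 5 were lower and 5 higher, among them the transcription factors Eomes (-0.49 ± 0.08) and Hes6 (0.90 ± 0.08). Neuron genes were lower in 19 of 32 and higher in 4 (median -0.35), with the adhesion gene Ncam1 at -1.33, the microtubule gene Dcx at -0.49 ± 0.11, and the tubulin Tubb3 and the tubulin-binding Stmn1 at 0.44 ± 0.09 and 1.08 ± 0.10. Cell cycle genes of the G1/S phase were higher in 20 of 38 and lower in 6, with Tyms, the thymidylate synthase, at 1.32 ± 0.12 and the cyclin partner Cdk6 at -0.89 ± 0.15. Globin mRNAs of blood cells differed, with the adult beta globin Hbb-bs at 1.40 ± 0.15 and the embryonic Hba-x at -1.44 ± 0.15.

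Lists of other cell functions also held genes in both directions. Of 25 cholesterol and lipid synthesis genes 10 were higher and 5 lower (median 0.14), near the shares of expressed genes. Scaling to the column total gave 5 and 5 (median 0.04). Fdps, which makes farnesyl diphosphate, read 433, 417 and 412 ppm in the total and 812, 735 and 788 ppm in the polysome libraries (log2 fold 0.89 ± 0.06), while Fasn and Acaca, the large enzymes of fatty acid synthesis, had -0.86 ± 0.14 and -0.92 ± 0.10. Mitotic genes were higher in 13 of 31 cases and lower in 9 (median 0.09), also near those shares, and with scaling to the column total in 8 and 9 (median -0.02). They ran from the mitotic kinase gene Cdk1 at 1.1 ± 0.10 to Mki67. Of 14 tubulin and actin genes 7 were higher and 2 lower (median 0.30, 0.20 with scaling to the column total). Only 1 was lower without any 1 of the total Torin1 libraries or without polysome Torin1 replicate 3. They included the cytoplasmic actin Actb at -0.54 ± 0.11 and the tubulin Tuba1a at 0.56 ± 0.11.

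Among markers of other cells, interneuron genes were higher in 2 of 17 cases and lower in 5, and the neuropeptide gene Sst had 1.03 ± 0.08. Microglia and blood genes were higher in 5 and lower in 3 of 18 cases. Endothelial, mural and meningeal genes were higher in 2 and lower in 3 of 19 cases. Without 1 library these were 1 to 3 and 1 to 4, with 1 and 1 without polysome Torin1 replicate 3. Leaving out polysome Torin1 replicate 2 or any 1 of the total Torin1 libraries also left 1 higher, and scaling to the column total gave 1 and 5. Oligodendrocyte and astrocyte genes were higher in 1 and lower in 1 of 10 cases. None was lower without any 1 of the total Torin1 libraries or without polysome Torin1 replicate 1, and 2 were higher without polysome Torin1 replicate 1 or 3. The collagen gene Col1a1 had -0.93 ± 0.14 and the lineage factor gene Olig1 0.56 ± 0.10.

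The loading under Torin1 differed from that in DMSO in few genes. The interaction test called 143 genes (0.707%) lower and 4 (0.0198%) higher under Torin1 than in DMSO. When 1 of the 12 libraries was left out, the counts ran from 97 to 195 lower and from 1 to 29 higher, both the highest without polysome Torin1 replicate 3. Of the 143 lower genes, RefSeq annotated 93 as protein-coding, 43 as pseudogenes and 3 as transcribed pseudogenes. These classes held 15253, 987 and 148 of the genes tested. Of the 81 cytosolic ribosomal protein genes 68 were among those lower, with a median difference of -1.22 on the log2 scale, and 10 of the 31 other TOP mRNAs (median -0.41). The ribosomal protein count ran from 50 to 79 when 1 of the 6 Torin1 libraries was left out, the highest without polysome Torin1 replicate 3. It was 49 with the replicate block by culture. For the other TOP mRNAs the count was 17 without polysome Torin1 replicate 3, and scaling to the column total gave 6 lower and 1 higher (median -0.13). The genes of the first list at least 2-fold lower under Torin1 were thus not those with the widest change alone: Rpsa differed by -0.92 ± 0.13 and Rps2 by -1.10 ± 0.15, and both had log2 folds below 0 in DMSO (-0.37 and -0.11), while Rps19 differed by -1.96 ± 0.20 from 0.81 in DMSO (limma interaction, adjusted p = 0.000386). Rps27l, Rpl38 and Rpl27 were called higher on polysomes under Torin1 and were not called different from DMSO, with differences of -0.14 ± 0.24, -0.87 ± 0.21 and -0.57 ± 0.15.

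Pabpc1 and Ybx1 were depleted under both treatments and more under Torin1. The difference was -1.0 ± 0.13 for Pabpc1 (limma interaction, adjusted p = 0.00196) and -1.5 ± 0.23 for Ybx1 (adjusted p = 0.00722, limma), with log2 folds of -1.74 and -0.69 in DMSO. The Pabpc1 difference was not called with scaling to the column total. Tpt1, Eef1a1, Rack1, Eef1b2, Eef1g and Eif3f differed by -1.49, -1.20, -1.14, -1.22, -0.87 and -1.23. Rack1, a scaffold on the small ribosomal subunit, read 1099, 958 and 1053 ppm in the total and 639, 573 and 654 ppm in the polysome libraries, with polysome below total under Torin1 and a log2 fold of 0.41 ± 0.08 in DMSO. Larp1, Eef1d and Btf3 were not called different from DMSO (-0.02 ± 0.14, 0.01 ± 0.10 and -0.36 ± 0.19). Eif3k differed by -0.64 and Eif3h by -0.65, though neither was called lower than total mRNA under Torin1, and the difference of Eif3k was lost in 10 of the 12 limma fits that left out 1 library (adjusted p from 0.061 to 0.146 there).

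Genes outside the TOP lists that were lower than in DMSO included Ccni, a cyclin-related gene, which read 309, 280.5 and 296 ppm in the total and 158, 154 and 149 ppm in the polysome libraries and differed by -0.76 ± 0.08 (limma interaction, adjusted p = 0.000923). Nme2, a nucleoside diphosphate kinase, remained above total mRNA under Torin1 (0.47 ± 0.09) with a difference from DMSO of -0.75 ± 0.13, a call lost in 10 of the 12 limma fits that left out 1 library (adjusted p from 0.0607 to 0.106 there). Bgn, the proteoglycan biglycan, differed by -1.47 ± 0.28 at levels of 3.38 to 14.2 ppm, a call lost in 9 of the 12 limma fits that left out 1 library (adjusted p from 0.0696 to 0.128 there). Wsb1 differed by -0.63 ± 0.12, a call lost in 9 of the 12 limma fits that left out 1 library (adjusted p from 0.0551 to 0.111 there). Of the 4 genes higher than in DMSO, the 2 expressed ones were Srd5a1, a steroid reductase, and Rdh13, a retinol dehydrogenase. Srd5a1 read 8.77, 8.93 and 8.48 ppm in the total and 17.2, 18.6 and 15.4 ppm in the polysome libraries and differed by 0.71 ± 0.13, and Rdh13 read 14.2, 15.8 and 15.4 ppm in the total and 21.4, 22.8 and 20.1 ppm in the polysome libraries and differed by 0.61 ± 0.12 (limma interaction, adjusted p = 0.0302 and 0.0464). The call of Srd5a1 was lost in 11 of the 12 limma fits that left out 1 library (adjusted p from 0.0533 to 0.104 there), and that of Rdh13 was lost in 10 of the 12 limma fits that left out 1 library (adjusted p from 0.074 to 0.15 there).

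**Figure D5:**
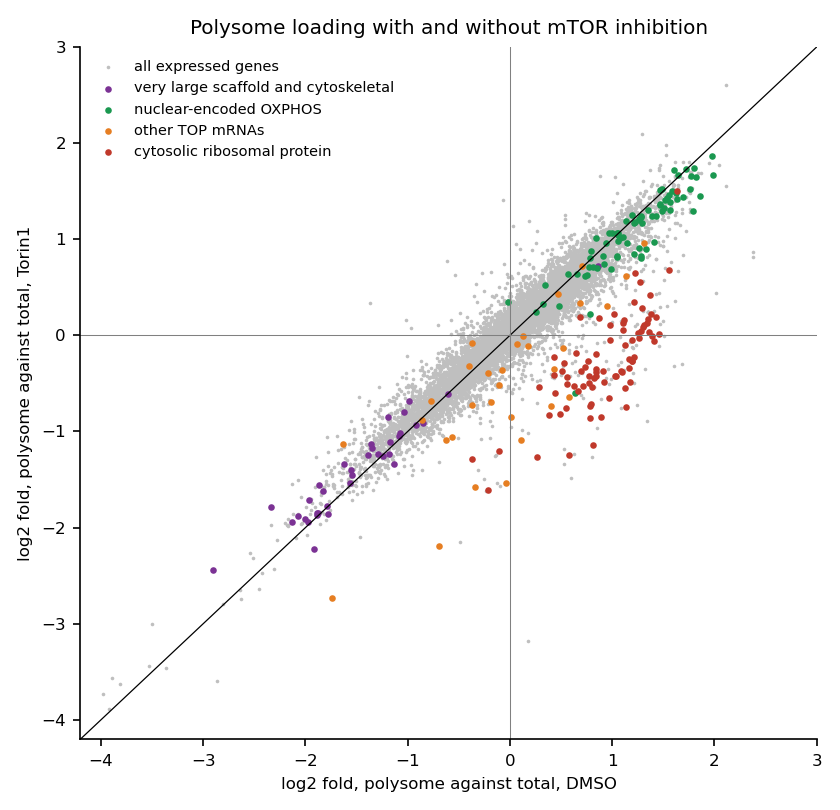
Log2 fold of polysome against total mRNA under Torin1 against that in DMSO, each point 1 expressed gene, with the line of equal values (12 of 9590 genes lie outside the axes). Very large (purple) and oxidative phosphorylation (green) genes lie near the line at opposite ends, except Cox7a2l, and ribosomal protein genes (red) lie below it.

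For most genes the loading under Torin1 and in DMSO was not called different. In DMSO 4159 genes (20.5%) were higher and 4147 (20.5%) lower, a split that became 1853 and 6708 with scaling to the column total. The medians in DMSO were -1.55 for the list of very large proteins, -0.99 for matrix and adhesion genes, -1.88 for mitochondrially encoded transcripts and 0.93 for mitochondrial ribosomal proteins. Scaling to the column total lowered the median of all genes in the Torin1 comparison from -0.02 to -0.11 and raised that of the difference from 0.03 to 0.29, so differences near 0 are relative to the scaling. The ribosomal protein list kept a negative median under it, -0.44 for loading under Torin1 and -0.95 for the difference, with 50 genes lower on polysomes and 66 lower than in DMSO.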

How the data were processed

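Total and polysome mRNA of Torin1- and DMSO-treated cells were sequenced in 12 libraries, and library titles gave the groups. STAR 2.7.9a, HTSeq 0.6.0 and mm10 appear in the submitters' processing notes. The authors deposited 1 table of a signal for 53351 genes, and its 12 sample columns were all used (0 left out). The sources used here do not give its scale. Between 96.9% and 100% of low values per library lay within 0.05 of a whole number of equal steps tied to the sum of the column, and these steps are not reads, so depth is unknown and no counting interval is given.

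Scaling used column totals followed by a trimmed mean of log ratios (own code, trimming 0.3 of ratios and 0.05 of abundances per end). A gene was tested if its deposited signal reached 1 in 3 libraries. Using R 4.3.3, limma 3.58.1 was fitted to log2(value + 1) of all 12 libraries with 4 group means, two-sided, with Benjamini-Hochberg adjustment at 0.05. The fit was tested on simulated data. RefSeq (GRCm38.p6) matched 17841 of 20240 tested genes by symbol.

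Genes named are, among expressed genes called with non-overlapping groups, the 12 largest coding rises and falls and the 6 largest others in each direction, and also 2 called genes in each direction from each of 32 lists, a fixed set and the 6 largest differences from DMSO. For the largest rises and falls, genes with predicted, Rik, pseudogene or accession names were left out. Coding there meant a match to a RefSeq gene with a protein. Other named genes, mostly list members, were chosen after their values were seen. The comparison and the lists were chosen with earlier results of these data known. Alternatives were other scalings, filters, a pseudocount of 0.1, fewer libraries, blocks and a 1.5-fold minimum. Protein lengths were not analysed here. Some genes that the rule names are not reported here.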

Additional observations from a re-analysis of the deposited data

Results flagged for a closer look

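The polysome loading of 26 named genes differed between Torin1 and DMSO in the test of the difference itself (limma interaction, adjusted p under 0.05, n = 3 libraries a group). Of these, 24 were lower and 2 higher under Torin1. Among ribosomal protein genes the log2 differences, Torin1 minus DMSO, were -1.96 for Rps19, -1.83 for Rps12, -1.65 for Rpl17, -1.52 for Rpl12, -1.40 for Rplp0, -1.22 for Rps6, -1.10 for Rps2 and -0.92 for Rpsa. Among other genes of the translation machinery they were -1.5 for Ybx1, -1.49 for Tpt1, -1.23 for Eif3f, -1.22 for Eef1b2, -1.20 for Eef1a1, -1.14 for Rack1, -1.0 for Pabpc1, -0.87 for Eef1g, -0.65 for Eif3h and -0.64 for Eif3k. Outside it they were -1.47 for the proteoglycan gene Bgn, -1.24 for the supercomplex factor Cox7a2l, -0.76 for Ccni, -0.75 for Nme2, -0.63 for Wsb1 and -0.56 for Atp5g2. The genes higher under Torin1 were Srd5a1, with a difference of 0.71, and Rdh13, with 0.61.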

How the results depend on the processing

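The counts of 4133 higher and 3892 lower genes under Torin1 ran from 3649 to 4149 and from 3359 to 3800 when 1 Torin1 library was left out, and those of 837 and 1409 genes at least 2-fold on or off from 657 to 1044 and from 1147 to 1505. A minimum of 1.5-fold left 707 and 844 under Torin1, 863 and 1002 in DMSO (4159 and 4147 without it), and 0 higher and 21 lower in the difference from DMSO (4 and 143). Scaling to the column total gave 1853 and 6708 in DMSO and 32 higher in the difference, and a mean of at least 8 scaled units gave 2 higher. Without 1 library the difference had 1 to 29 higher and 97 to 195 lower genes, and the DMSO comparison 3691 to 3830 higher and 3617 to 3873 lower. The replicate block by number over the 6 Torin1 libraries gave 3019 higher and 2584 lower (25 ribosomal protein genes lower in place of 41), and the replicate block by culture gave 0 higher and 91 lower in the difference. Correlations of the deviations of same-numbered Torin1 libraries were 0.065, 0.026 and -0.03 (DMSO -0.053, -0.069 and -0.012), and not every library correlated best with its own number. Such deviations from means of 3 libraries cannot decide whether same-numbered libraries share a lysate, and the labels do not say so. The main fit used no pairing, although total and polysome mRNA were taken from the same lysates. The median log2 fold of expressed genes with minus without a pyrimidine run, -0.02, ranged from -0.022 to -0.009 without 1 library. It was -0.011 for a window to 30 bases after the start, -0.032 for a run within 2 bases and -0.046 at the start itself, 0.003 for genes with 1 entry and -0.01 outside the ribosomal protein genes, against an SD over replicates of 0.005. Of 2464 repeats of the 154 named genes' folds under Torin1, 67 lost a call (21 genes), 15 gained one (5 genes) and 0 changed sign. Of 520 repeats of 26 differences from DMSO, 86 lost the call (11 genes). Both sets of repeats leave out the 1.5-fold minimum, which gave far fewer called genes. The cause was not tested for any of these changes. The analysis of protein length and its 3 alternatives were not run. Settings added after seeing the data are those for the DMSO comparison, the lists without total_Torin1 replicate 2 or polysome_Torin1 replicate 3, the other scalings and filters for the difference, every setting for the pyrimidine run other than the window to 30 bases, and gene span. Depth in reads is unknown, so no limit from counting is given.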
